A study of Danio rerio with 2 samples.

Results

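The genes described here are 10 enzymes of cholesterol synthesis, acat2, hmgcs1, hmgcra, idi1, fdps, fdft1, sqlea, lss, cyp51 and dhcr7, listed in the order in which they act. They were taken by name from the 34326 genes of a table that compares rraga mutant with wild type zebrafish larvae, and all 10 were found. Both groups were of the strain TL (Tupfel long fin), 5 days post fertilization. In both, the RNA came from cells sorted by flow cytometry for Cldnk:GFP, a marker of oligodendrocytes, which are a kind of myelin-forming glia. Whether other myelin-forming cells were sorted with them is not known here. The rraga mutant group and the wild type group each had 1 record, which merged 2 independent biological replicates per the labels. The sources used here give neither the allele nor the number of larvae behind each replicate. The table holds the authors' fold and p for each gene and no value per replicate, so the replicate spread and the sequencing depth cannot be given. The expression value of the table, called the level here, is the mean of whichever genotype was higher, and the mean of the other genotype is not listed. Its normalized unit is not named, so levels serve here only to class and rank genes within the table. They are not read as amounts of RNA, and genes of like level need not have like amounts.

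Cholesterol is built from acetyl-CoA. The mevalonate steps lead to farnesyl diphosphate, which is shared with protein prenylation, dolichol and ubiquinone, and squalene synthase then commits carbon to sterols. The genes are induced together by SREBP transcription factors when sterol in the endoplasmic reticulum is low. Cholesterol is a main lipid of myelin, and myelinating glia make much of it themselves. RagA, the product of rraga, is a small GTPase that helps recruit mTORC1 to the lysosome, and mTORC1 is known to promote SREBP activity. The question here was whether transcripts of these enzymes differ between rraga mutant and wild type cells.

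None of the 10 enzymes passed the threshold used here, an authors' FDR adjusted p under 0.05, in the authors' deposited table. Of the 25757 genes with a p there, 0.221% did. The 6 enzymes of level 1 or more had small folds, between -0.56 and 0.25 on the log2 scale of mutant over wild type, per the authors' deposited table. The other 4, hmgcra, fdft1, sqlea and lss, were of level under 1, and their folds spread from -5.51 to 0.98 per the authors' deposited table. Among all 10, the fold was above 0 for 6 and below it for 4, and the median log2 fold was 0.12. Over all genes with a p, 51.0% were higher and the median was 0.024. Over all genes of level 10 or more, 62.3% were higher and the median was 0.15. The adjusted p was 0.515 for fdft1 and 0.9999 for each of the other 9 per the authors' deposited table. The authors' unadjusted p was under 0.05 for 1 of the 10, fdft1, which was lower. Of all genes with a p, 9.66% had such a p, and 5.24% had it and were lower, so 1 in 10 is near the background.

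Each fold is given below with a 95% interval derived from the authors' fold and p under the assumption of a normal test. It is not known whether that p carries the spread between replicates.

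**Figure D1:**
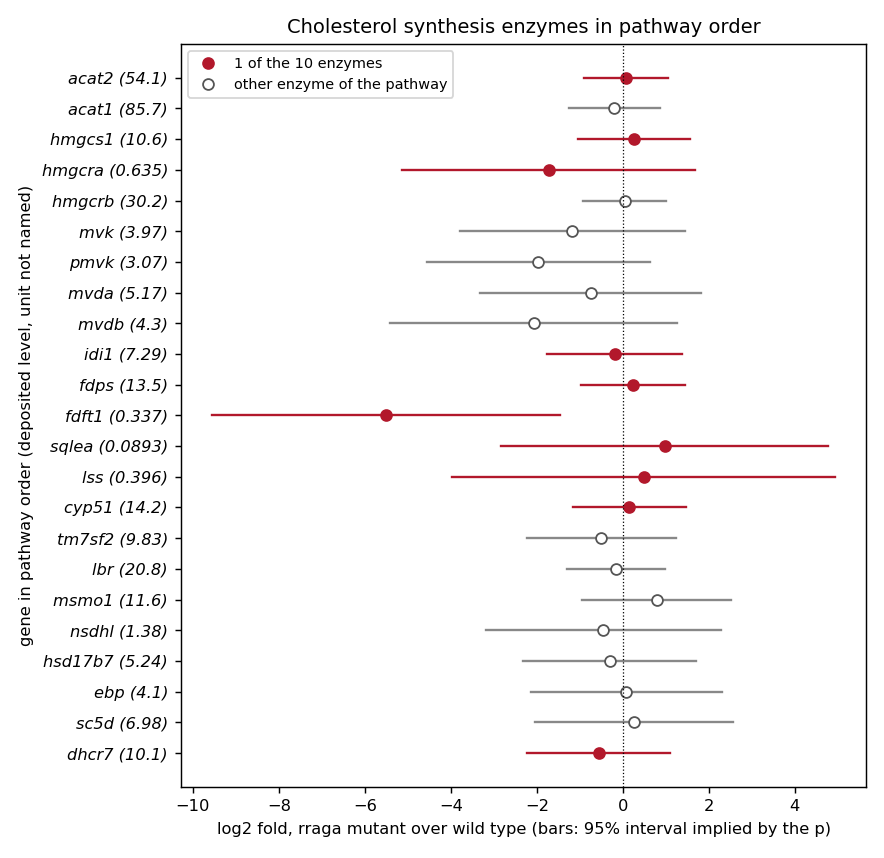
Log2 fold of rraga mutant over wild type (horizontal axis) for the enzymes of the cholesterol pathway, drawn in pathway order from top to bottom, with the deposited level in parentheses. Filled points are the 10 enzymes, open points the other listed enzymes found in the table, and bars the 95% interval implied by the authors' p. The bar of fdft1 is the 1 that does not cross 0, and the bars of the enzymes of level under 1 are the widest among the 10.

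The first steps make mevalonate. acat2 encodes the cytosolic thiolase that forms acetoacetyl-CoA (ENSDARG00000007127, chromosome 20, 31019716 to 31028267, GRCz11). Its level was 54.1 and its log2 fold 0.077, with p = 0.877 per the authors' deposited table. The implied interval ran from -0.90 to 1.06, that is from 0.534-fold to 2.08-fold, and was the narrowest of the 10. hmgcs1, the HMG-CoA synthase gene (ENSDARG00000103025, chromosome 10, 6009365 to 6033188), had a level of 10.6 and a log2 fold of 0.25, with p = 0.700 per the authors' deposited table. Its interval ran from -1.04 to 1.55. Both intervals span 0, so the values settle a direction for neither gene and do not show that either is unchanged.

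HMG-CoA reductase, the enzyme inhibited by statins and the main point of control of the pathway, is encoded by a pair of genes in zebrafish. hmgcra (ENSDARG00000052734, chromosome 5, 50326153 to 50346118) had a level of only 0.635 and a log2 fold of -1.73, with p = 0.321 per the authors' deposited table. Its interval, from -5.14 to 1.68, spans both directions widely. hmgcrb, its paralog on the list of other enzymes, had a level of 30.2 and a log2 fold of 0.042, with p = 0.932 per the authors' deposited table. The interval of hmgcrb ran from -0.93 to 1.01. A reading of the reductase step from hmgcra alone would therefore rest on the less precise member of the pair.

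After mevalonate, idi1, the isopentenyl diphosphate isomerase gene (ENSDARG00000019976, chromosome 24, 3437586 to 3445316), had a level of 7.29 and a log2 fold of -0.19 (p = 0.813; interval -1.76 to 1.38) per the authors' deposited table. fdps encodes farnesyl diphosphate synthase (ENSDARG00000040890, chromosome 16, 14103231 to 14133011). It had a level of 13.5 and a log2 fold of 0.23 (p = 0.706; interval -0.98 to 1.45) per the authors' deposited table. The region of fdps overlaps those of si:dkey-85k15.7 and BX005429.2, which lie on the same strand. How reads were divided among them is not stated. The levels of these neighbours were 0.124 and 0.381 per the authors' deposited table.

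fdft1 encodes squalene synthase, the first enzyme committed to sterols (ENSDARG00000101062, chromosome 20, 53101980 to 53134084). It had the most extreme fold of the 10, -5.51 on the log2 scale or a signed linear fold of -45.6, at a level of 0.337, with p = 0.00763 and adjusted p = 0.515 per the authors' deposited table. The interval ran from -9.56 to -1.46. Of the 10558 genes of level under 1, 14.1% had a log2 fold at least as large in either direction, and 7.58% were lower with an unadjusted p under 0.05. Its region also holds an RNA gene on the other strand, 5S_rRNA_1258, to which the table gives no fold. The size of this fold is therefore uncertain, and fdft1 is not called changed.

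The next enzymes convert squalene to lanosterol and were also of low level. sqlea, a squalene epoxidase gene (ENSDARG00000079946, chromosome 16, 43496735 to 43510894), had a level of 0.0893 and a log2 fold of 0.98 (p = 0.614; interval -2.82 to 4.78) per the authors' deposited table. lss, the lanosterol synthase gene (ENSDARG00000061274, chromosome 9, 38671985 to 38690596), had a level of 0.396 and a log2 fold of 0.49 (p = 0.830; interval -3.97 to 4.94) per the authors' deposited table. Neither direction can be read from such intervals. To pass the threshold used here with the errors implied for them, the 4 enzymes of level under 1 would have needed folds of 117 or more. The 6 others would have needed between 3.94-fold (acat2) and 10.1-fold (dhcr7).

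cyp51 encodes lanosterol demethylase (ENSDARG00000042641, chromosome 19, 598848 to 617437). Its level was 14.2 and its log2 fold 0.15 (p = 0.819; interval -1.16 to 1.47) per the authors' deposited table. Its region overlaps that of slc6a18 on the same strand, a gene of level 0.296 per the authors' deposited table. The log2 fold of slc6a18 there was -7.33 (p = 0.0409, adjusted p = 0.685). dhcr7, the dehydrocholesterol reductase gene whose loss causes Smith-Lemli-Opitz syndrome in humans (ENSDARG00000103226, chromosome 2, 28666537 to 28687113), had a level of 10.1 and a log2 fold of -0.56 (p = 0.504; interval -2.22 to 1.09) per the authors' deposited table. It was the lowest fold among the 5 enzymes of level 10 or more, of which the other 4, acat2, hmgcs1, fdps and cyp51, were between 0.077 and 0.25 per the authors' deposited table. Over the 6 enzymes of level 1 or more the intervals together spanned 0.215-fold to 2.93-fold.

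The folds were also placed among those of genes of like level, as a description, since the level is taken from the higher genotype and so is not independent of the fold. In the class of level 10 to 30, which holds 3132 genes, the central 90% of log2 folds ran from -0.98 to 1.79 around a median of 0.15. hmgcs1, fdps and cyp51 lay at percentiles 57.7, 56.1 and 50.2 of that class and dhcr7 at 11.6. acat2 lay at percentile 40.1 of the class of level 30 to 100, and idi1 at 37.2 of the class of level 3 to 10. In the class of level under 1, where the central 90% ran from -6.79 to 5.16, fdft1 lay at percentile 9.79, hmgcra at 33.2, lss at 63.6 and sqlea at 70.4. All 10 thus lay inside the central 90% of their own class.

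**Figure D2:**
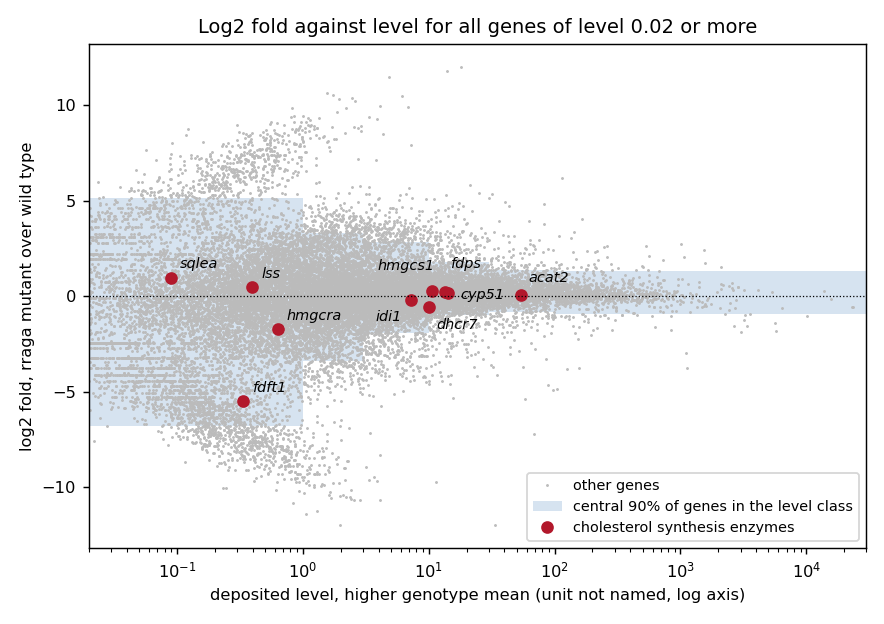
Log2 fold of rraga mutant over wild type (vertical axis) against the deposited level on a log axis, for genes of level 0.02 or more. Grey points are other genes, red points the 10 enzymes, and blue bands the central 90% of genes in each of the level classes bounded by 1, 3, 10, 30 and 100. The spread narrows as the level goes up to the class of 30 to 100 and no further above it, and every red point lies inside its band.

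The remaining enzymes of the pathway were 16 listed genes, of which 13 were found and 0 passed the threshold per the authors' deposited table or had an unadjusted p under 0.05. Over all genes with a p, these shares were 0.221% and 9.66%. The 13 enzymes were higher in 4 cases and lower in 9, with a median log2 fold of -0.31. The 4 genes between the reductase and the isomerase were all lower, none of them past either p. mvk (mevalonate kinase) had a log2 fold of -1.18 and pmvk (phosphomevalonate kinase) -1.96 per the authors' deposited table, where their levels were 3.97 and 3.07. mvda and mvdb, named as mevalonate diphosphate decarboxylase genes, had -0.75 and -2.08 at levels of 5.17 and 4.30 per the authors' deposited table. The region listed for mvdb, 31090340 to 31090529, overlaps that of mvda, 31078889 to 31090423. The division of reads between them is thus uncertain, and whether mvdb is a gene apart from mvda is not known here. The region of pmvk overlaps that of eaf1. The interval of each of the 4 genes spans 0. These 4 were singled out after their values were seen.

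Of highest level among the other enzymes were acat1, lbr, msmo1 and hmgcrb. acat1, the mitochondrial thiolase gene, had a log2 fold of -0.20 (p = 0.710) per the authors' deposited table. lbr, a lamin B receptor gene whose product is also a sterol reductase, had -0.16 (p = 0.780), and msmo1, a sterol methyl oxidase gene, had 0.78 (p = 0.378), per the authors' deposited table. Over the 23 enzymes of both lists found, the fold was above 0 for 10 and below it for 13, and the median was -0.19.

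The regulators gave 0 calls among 18 genes found of 21 listed, and 0 at an unadjusted p under 0.05, per the authors' deposited table. Over all genes with a p, these shares were 0.221% and 9.66%, so few or none would be looked for among 18 genes. The median log2 fold of the 18 regulators was -0.11, with 6 higher and 12 lower. srebf2, the SREBP gene chiefly tied to cholesterol synthesis, had a log2 fold of -0.15 (p = 0.820), and srebf1, the one chiefly tied to fatty acids, 0.95 (p = 0.523), per the authors' deposited table; their levels there were 7.58 and 1.15. scap, the SREBP escort gene, had -0.053 at a level of 0.773 per the authors' deposited table. insig1 holds SREBP back in the endoplasmic reticulum and is itself an SREBP target. Its log2 fold was -0.12 (p = 0.827) and its level 46.2 per the authors' deposited table. ldlra, an LDL receptor gene and another SREBP target, had -0.45 (p = 0.468), and mylipa, which encodes a ligase that targets that receptor for degradation, had 0.62 (p = 0.271), per the authors' deposited table. mbtps1, a protease gene of SREBP processing, had -0.014, and insig2, a relative of insig1, had -0.70 (p = 0.232) per the authors' deposited table. srebf2, srebf1, scap and ldlra were chosen for their roles after their values were seen.

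Of 36 listed genes of cholesterol transport, storage and turnover 30 were found, with 0 past the threshold, 13 higher, 17 lower and a median of -0.14 over the authors' deposited table. soat2, which encodes a sterol acyltransferase that stores cholesterol as esters and is best known from liver and gut in mammals, had a level of 19.8 and a log2 fold of -2.79 (p = 0.00107, adjusted p = 0.223; interval -4.47 to -1.12) per the authors' deposited table. No other gene of this list had an unadjusted p under 0.05, while 9.66% of all genes with a p did. npc2 and npc1 carry cholesterol out of the lysosome. npc2 had a level of 289.7 and a log2 fold of 0.73 (p = 0.201) per the authors' deposited table. npc1, chosen as its partner after its value was seen, had -0.050 (p = 0.926) at a level of 15.4 per the authors' deposited table. apoeb, an apolipoprotein E gene, and stard3nl, a late endosomal sterol-binding protein gene, had -0.15 and 0.27 per the authors' deposited table.

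The branch that draws on farnesyl diphosphate gave 0 calls among 12 genes found of 14 listed, with 8 higher, 4 lower and a median of 0.41 over the authors' deposited table. Its 10 genes of level 10 or more were higher in 6 cases and lower in 4, with a median of 0.41. Over all genes of level 10 or more, 62.3% were higher and the median was 0.15. ggps1, the geranylgeranyl diphosphate synthase gene, had a level of 2.97 and a log2 fold of 2.15 (p = 0.0407, adjusted p = 0.685; interval 0.091 to 4.21) per the authors' deposited table. It alone on this list had an unadjusted p under 0.05, while 9.66% of all genes with a p did. pdss1 (ubiquinone side chain), fnta and pggt1b (protein prenyltransferases) and dhdds (dolichol) had log2 folds of 0.49, 0.86, 0.32 and -0.29 per the authors' deposited table.

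Fatty acid synthesis genes, also under SREBP control, gave 0 calls among 13 found of 15 listed, with 5 higher, 8 lower and a median of -0.49 over the authors' deposited table. The 6 of level 10 or more were all lower, with a median of -1.06, so the 5 higher genes were of level under 10. Over all genes of level 10 or more, 62.3% were higher. elovl6, a fatty acid elongase gene, had a level of 66.1 and a log2 fold of -1.28 (p = 0.0183, adjusted p = 0.609; interval -2.34 to -0.22) per the authors' deposited table. scdb, mid1ip1b and mid1ip1l (a desaturase and the activators of acetyl-CoA carboxylase) had -1.09, -1.02 and -0.65, none with a p under 0.05, per the authors' deposited table. Over the 5 related lists joined, which hold 86 genes found, 1 was higher and 2 were lower at an unadjusted p under 0.05. Of all genes with a p, 9.66% had such a p.

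**Figure D3:**
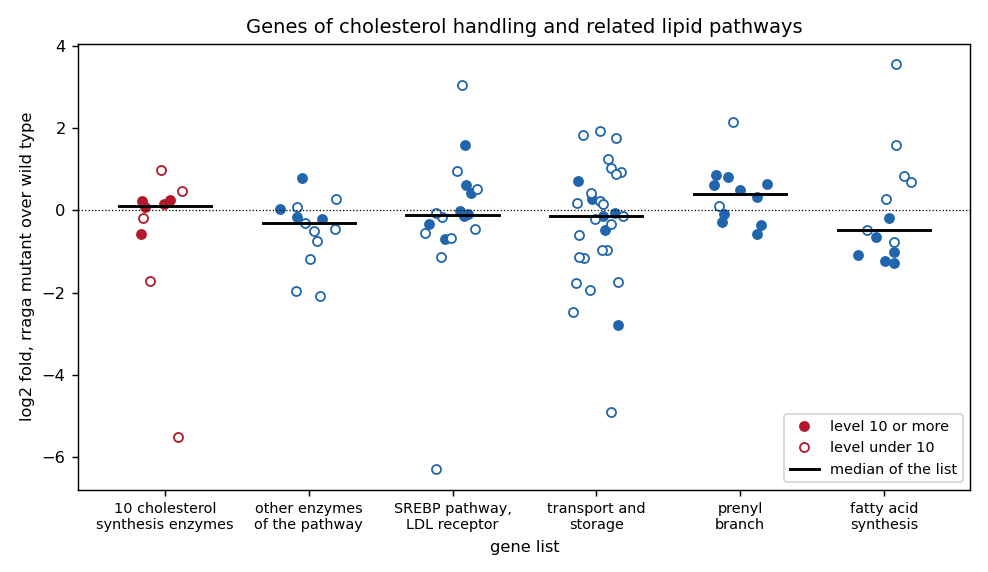
Log2 fold of rraga mutant over wild type (vertical axis) for each gene found of the 10 cholesterol synthesis enzymes and of 5 related lists (horizontal axis). Filled points are genes of level 10 or more, open points those under it, and black lines the medians. These run from -0.49 for fatty acid synthesis to 0.41 for the prenyl branch. No point passed the threshold, an authors' FDR p under 0.05.

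Liver and gut make cholesterol too, and their markers were read beside the enzymes. The 14 hepatocyte markers were all found, at levels from 2.38 to 23441.5 per the authors' deposited table. All 14 were lower, with log2 folds from -1.10 to -0.17 and none past the threshold per the authors' deposited table. The 6 enterocyte markers found of 7 were all higher, with 0 past it and vil1 (1.49) and fabp6 (5.39) at an unadjusted p under 0.05 per the authors' deposited table. Of all genes with a p, 9.66% had such a p. The oligodendrocyte markers were all found, at levels from 14.2 to 5321 per the authors' deposited table, with 3 higher, 8 lower and a median log2 fold of -0.82. Among them mpz, a myelin protein gene, fell (log2 fold -2.96, adjusted p = 2.34e-04), and plp1b and cd59 had -1.89 and -1.57 at an unadjusted p under 0.05, per the authors' deposited table. mpz alone of this list passed the threshold, while 0.221% of all genes with a p did. mbpa and mbpb, the myelin basic protein genes, and sox10, a lineage transcription factor gene, had 0.23, 0.18 and 0.48. cldnk, the gene named in the sort, had -0.82 (p = 0.127) per the authors' deposited table. plp1a, mag, olig2 and myrf had -1.04, -0.96, -0.69 and -0.16, and none of these genes was past the threshold per the authors' deposited table. mbpb, sox10, plp1a, mag, olig2 and myrf were chosen otherwise than by the rule for naming, to complete the list. The highest level of the whole table, 23441.5, was that of the hepatocyte marker apoa2. No marker found was listed at 0 in its higher genotype, and the table gives neither the level of the other genotype nor a summed level per genotype. The part of these cell types in the enzymes' values was not tested, and fewer cells of a type and less RNA per cell cannot be told apart in such bulk RNA. rraga itself had a log2 fold of 0.44 (p = 0.477) per the authors' deposited table, which does not check the genotype. It lies on chromosome 14, where none of the 10 enzymes lies.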

How the data were processed

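The analysis used 1 table of the authors' own comparison. Per the file headers it gives each gene's name, region, maximum group mean, log2 and signed linear fold change, and a p-value with FDR and Bonferroni adjustments. The authors deposited the group mean as a normalized signal of unnamed unit. The genome build is GRCz11, per the submitters' processing notes. The sources used here do not give the aligner, counter, annotation release, normalization or test. The 8569 genes of level 0 have no fold or p, and 25757 remained. The depth is unknown. Direction follows the title of the sheet, mutant against control.

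A gene was called where the authors' FDR p was under 0.05. The implied standard error is the size of the log2 fold over the normal quantile that matches the authors' p, taken as two-sided, and intervals are 95%. Only exact gene names were matched. Beside the 10 enzymes, the genes named were, per list, those with an unadjusted p under 0.05 and the 4 of highest level, plus those said to be chosen otherwise. Members and lists were chosen with earlier results of these data known. Marker lists for radial glia, macrophages and neurons (median log2 folds -0.59, 0.15 and 0.37 over 8, 8 and 7 genes) were also read. In that order 3, 4 and 4 genes were higher and 5, 4 and 3 lower. Their 1 call was hepacama of radial glia (log2 fold -2.28), while gfap, s100b and cx43 of that list were higher. The share called over all genes with a p was 0.221%. Of the macrophage markers, mfap4 (2.60), marco (3.68) and cd74a (-8.18, at a level of 0.811) had an authors' unadjusted p under 0.05. Such a p was found for 9.66% of all genes with a p. Of the marker lists other than that of oligodendrocytes only some genes are named. Python 3.11.15, pandas 2.3.3 and scipy 1.17.1 were used, and the adjustment was tested on simulated data. Some genes of the pathway are not reported here and are in no count of a list.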

Additional observations from a re-analysis of the deposited data

How the results depend on the processing

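Calls were counted again for the 10 enzymes and for the 86 other genes of the related lipid lists. The authors' FDR p under 0.01, their Bonferroni p and, for the 10, a minimum absolute log2 fold of 1 are stricter. They could only remove calls, so their count of 0 was fixed in advance. The authors' p was also adjusted over fewer genes: those with a p only, of level 1 or more, or of level 10 or more. No call was gained in either set by these (the count was 0 each time). The smallest adjusted p of an enzyme over these adjustments was 0.386, for fdft1. Only 6 of the 10 could be tested at level 1 or more and 5 at level 10 or more, and because the level is taken from the higher genotype, the filter depends on the fold. The median log2 fold of the 10 was 0.12. It was -0.038 when centred on the median of genes of level 10 or more, which is 0.15, so its sign depends on the centring; 5 of the 10 were then higher in place of 6. It was 0.092 when centred on all genes, 0.15 over the 5 enzymes of level 10 or more and 0.12 over the 6 of level 1 or more, the last chosen after seeing the data. No paired analysis was possible because the table holds no value per replicate; for the same reason no replicate was left out and no other normalization was run. The planned description of promoter motifs was not made.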
